A study of Mus musculus with 24 samples.

Results

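The metalloproteases that cut extracellular matrix and cell-surface proteins, together with their inhibitors, were followed through mouse quadriceps muscle in 8 groups of libraries. The members were the genes of the deposited matrix whose symbol is that of a numbered matrix metalloprotease (Mmp), a tissue inhibitor of metalloproteases (Timp), an ADAM protease (Adam), an ADAMTS protease (Adamts) or an ADAMTS-like protein (Adamtsl). The rule used symbols and no measured value. The matrix held 51 of them among 14159 genes: 15 Mmp, 4 Timp, 12 Adam, 15 Adamts and 5 Adamtsl genes. RefSeq lists 84 mouse symbols of this pattern, and the 33 without a row were not analysed here. The submitters kept only genes above 1 CPM (read counts scaled to a common library total) in at least 3 libraries, so a member could enter the matrix through 1 group in which it was high, and the 51 are not all members of the family.

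The libraries came from whole quadriceps of female mice of 2 strains, B6 (C57BL/6J) and MRL (MRL/MpJ), which were 6 to 8 weeks old at surgery, with 3 libraries in each group. Each strain was left uninjured or lost a 3 mm by 3 mm piece of quadriceps (volumetric muscle loss), and the gap received saline (the control injury), decellularized extracellular matrix from pig small intestine (ECM) or ultrahigh molecular weight polyethylene powder (PE). Injured muscle was collected 21 days after surgery. The comparisons asked how the injury and each material changed the muscle of each strain, and how the strains differed under the same treatment. The study's methods describe the samples as independent, and the labels number the libraries of a group without naming the mouse of each, so the p-values measure the spread between these samples. In bulk tissue, fewer cells of a type and less RNA per cell cannot be told apart.

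Matrix metalloproteases are zinc-dependent enzymes that are made as inactive precursors and cleave collagens, elastin and proteoglycans once their propeptide is removed, and TIMPs block them by binding the active site. ADAMs sit in the cell membrane, where the active ones release growth factors, cytokines and receptors from the cell surface. ADAMTS proteases are secreted and bind matrix, where they trim procollagens or cleave large proteoglycans such as versican and aggrecan, while ADAMTS-like proteins share their anchoring domains and lack the protease. In injured muscle, such enzymes are known from invading macrophages, from fibroblasts and from regenerating fibres.

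Levels are log2 CPM as deposited, in which 2 counts were added to every value before the log, so that a count of 0 stood at -3.65. At the mean effective library size of 25149678 estimated counts, 3 counts correspond to 0.119 CPM, or a log2 CPM of -2.33, and a level at or below it was not told apart from 0. This limit covers counting error only, and the depth of each library is not given by log2 CPM values. CPM is not divided by transcript length, so levels are compared between libraries and not between genes. Differences are log2 fold changes from limma, fitted on all 14159 genes and 24 libraries, with 2-sided p-values and the Benjamini-Hochberg adjustment within each comparison, and genes were called where the adjusted p was under 0.05. Because a fixed amount is added before the log, log2 fold changes understate the differences of low genes.

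Several libraries stood apart from the others of their group. In replicate 2 of the PE-treated MRL mice, 16 of the 51 members lay more than 2 log2 units from the mean of replicates 1 and 3, of which 14 were higher and 2 were lower, against 12.8% of all genes. Its Pearson correlation with replicates 1 and 3 across genes was 0.812 and 0.827, the lowest pairs within any group (genes are not independent replicates). Replicate 1 of the saline-treated MRL mice, replicate 3 of the ECM-treated MRL mice and replicate 2 of the saline-treated B6 mice also differed from their group in several members, as given below. Differences of single members that involve PE-treated MRL mice are therefore given with and without replicate 2. That library stood out partly through its levels in these same members. Differences and calls without it therefore follow in part from leaving it out, and they rest on replicates 1 and 3 of that group.

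Marker genes of cell types were summed in each library as CPM. The 7 markers of skeletal muscle fibres were present in every library, and their sum ran from 26770 CPM in replicate 2 of the PE-treated MRL mice to 168072 CPM in replicate 3 of the uninjured MRL mice. Over 7 of 8 macrophage markers, the sum was 145 to 195 CPM in uninjured, 326 to 361 in saline-treated, 286 to 860 in ECM-treated and 1442 to 5147 in PE-treated B6 mice. It was 86.3 to 185, 146 to 480 and 200 to 292 CPM in uninjured, saline-treated and ECM-treated MRL mice. In PE-treated MRL mice it was 257, 4260 and 255 CPM. The 5 markers of multinucleate macrophages and osteoclasts summed to 375 to 932 CPM in PE-treated B6 mice, and to 102, 2374 and 90.4 CPM in PE-treated MRL mice. The highest sum in any other group was 117 CPM. Dcstamp, a fusion gene in that list, was at 0 in uninjured MRL mice. Ctsk, Atp6v0d2, Dcstamp and Acp5 were higher in every PE library than in every saline library of B6 mice, and Ocstamp overlapped. Acp5 did not follow the sum between strains. Its log2 CPM was 6.42 and 5.97 in replicates 1 and 3 of the PE-treated MRL mice, against 4.65 to 5.86 in PE-treated B6 mice. Over 4 of 6 neutrophil markers, the sum was 16.3 to 127 CPM in PE-treated B6 mice, 23.7 CPM in replicate 2 of the PE-treated MRL mice, and at most 9.96 CPM in the libraries of all other groups. The sum of 6 fibroblast markers was 4244 to 7708 CPM in PE-treated B6 mice, and 2254, 13007 and 1649 CPM in PE-treated MRL mice. It stood at 4461 CPM in replicate 1 of the saline-treated MRL mice against 1094 and 1284 CPM in replicates 2 and 3. The sum of 6 satellite cell and new fibre markers was 1009 and 1093 CPM in replicates 1 and 3 of the saline-treated B6 mice and 57.4 CPM in replicate 2. The 5 measured markers of mammary and skin epithelium all had higher means with PE than with saline in B6 mice (median log2 fold change 2.66). In MRL mice all had lower means (-1.31). The 5 adipocyte markers were all lower in B6 (-1.24) and all higher in MRL mice (1.91), with 0 of either list called. The sums of both lists overlapped between PE and saline in each strain. In B6 mice the epithelium sum was 3.53 to 138 CPM with saline and 76.4 CPM in PE replicate 1. In MRL mice it was 64.3 to 177 CPM with saline and 1.58 to 122 CPM with PE. Csn3 of that list was at -2.664, -1.598 and 5.979 with saline and 5.197 to 6.571 with PE in B6 mice. It was at -1.929, 5.505 and 6.328 with PE in MRL mice. For the members whose levels moved with these sums, the part of the cell types in the result was not tested.

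**Figure D1:**
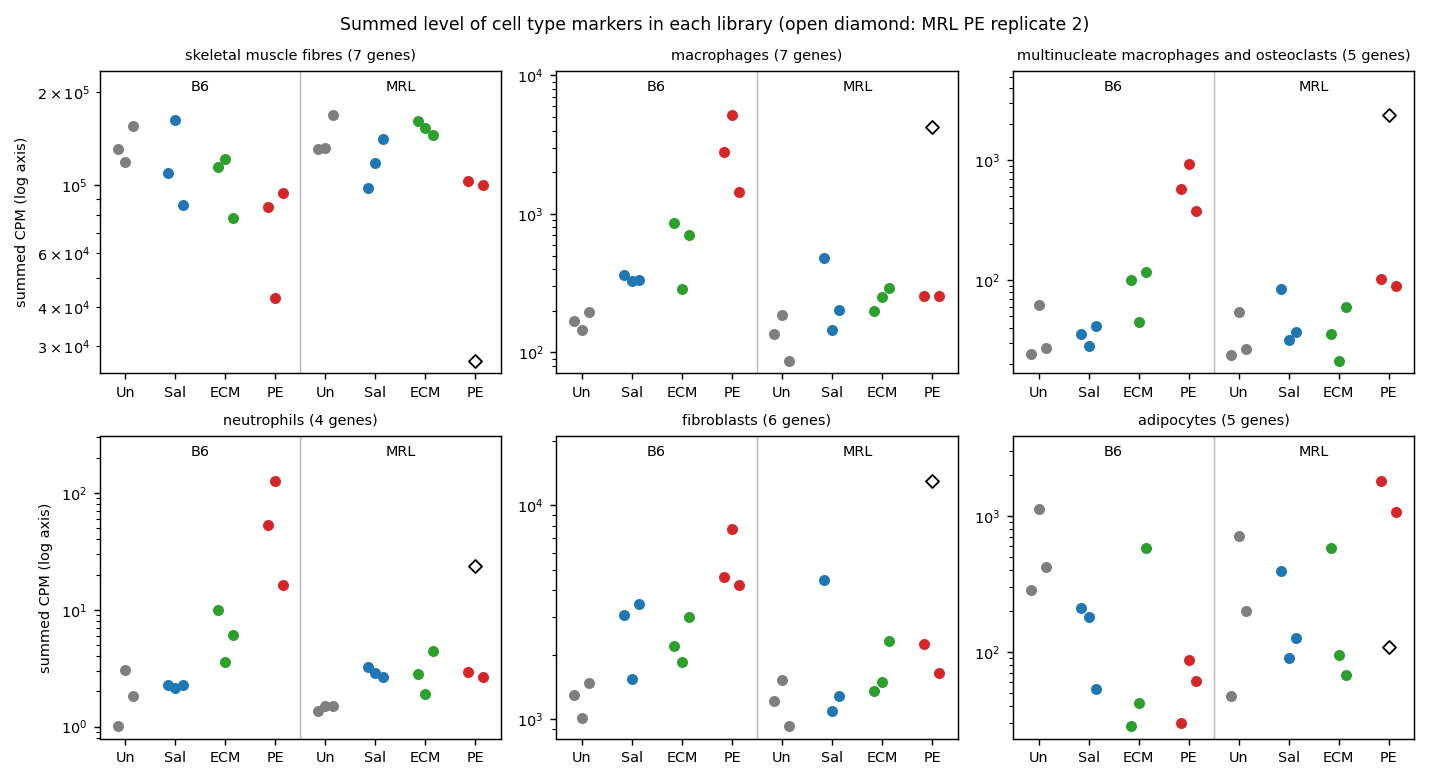
Summed CPM (log axis) of 6 lists of cell type markers in the 24 libraries of uninjured (Un), saline-treated (Sal), ECM-treated and PE-treated mice, 1 point per library. The macrophage sum of PE-treated B6 libraries lies at 1442 to 5147 CPM, and among PE-treated MRL libraries only replicate 2 (open diamond), at 4260 CPM, reaches that range.

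In a test across all 8 groups (limma's moderated F test), 20 of the 51 members differed, which is 39.2%, against 26% of all genes. Mmp9, Adamtsl1 and Mmp27 had the highest F statistics of the members, at 9.79, 9.10 and 6.59. The others called were Adamts2, Mmp19, Adam8, Adamts1, Adamts4, Mmp3, Mmp14, Adamts16, Mmp12, Mmp13, Timp1, Adam15, Adamts7, Adam10, Adamts12, Adamts14 and Adamts3. The heat map of all members by library shows Mmp12, Mmp13, Mmp19 and Adam8 with the widest range of colours.

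**Figure D2:**
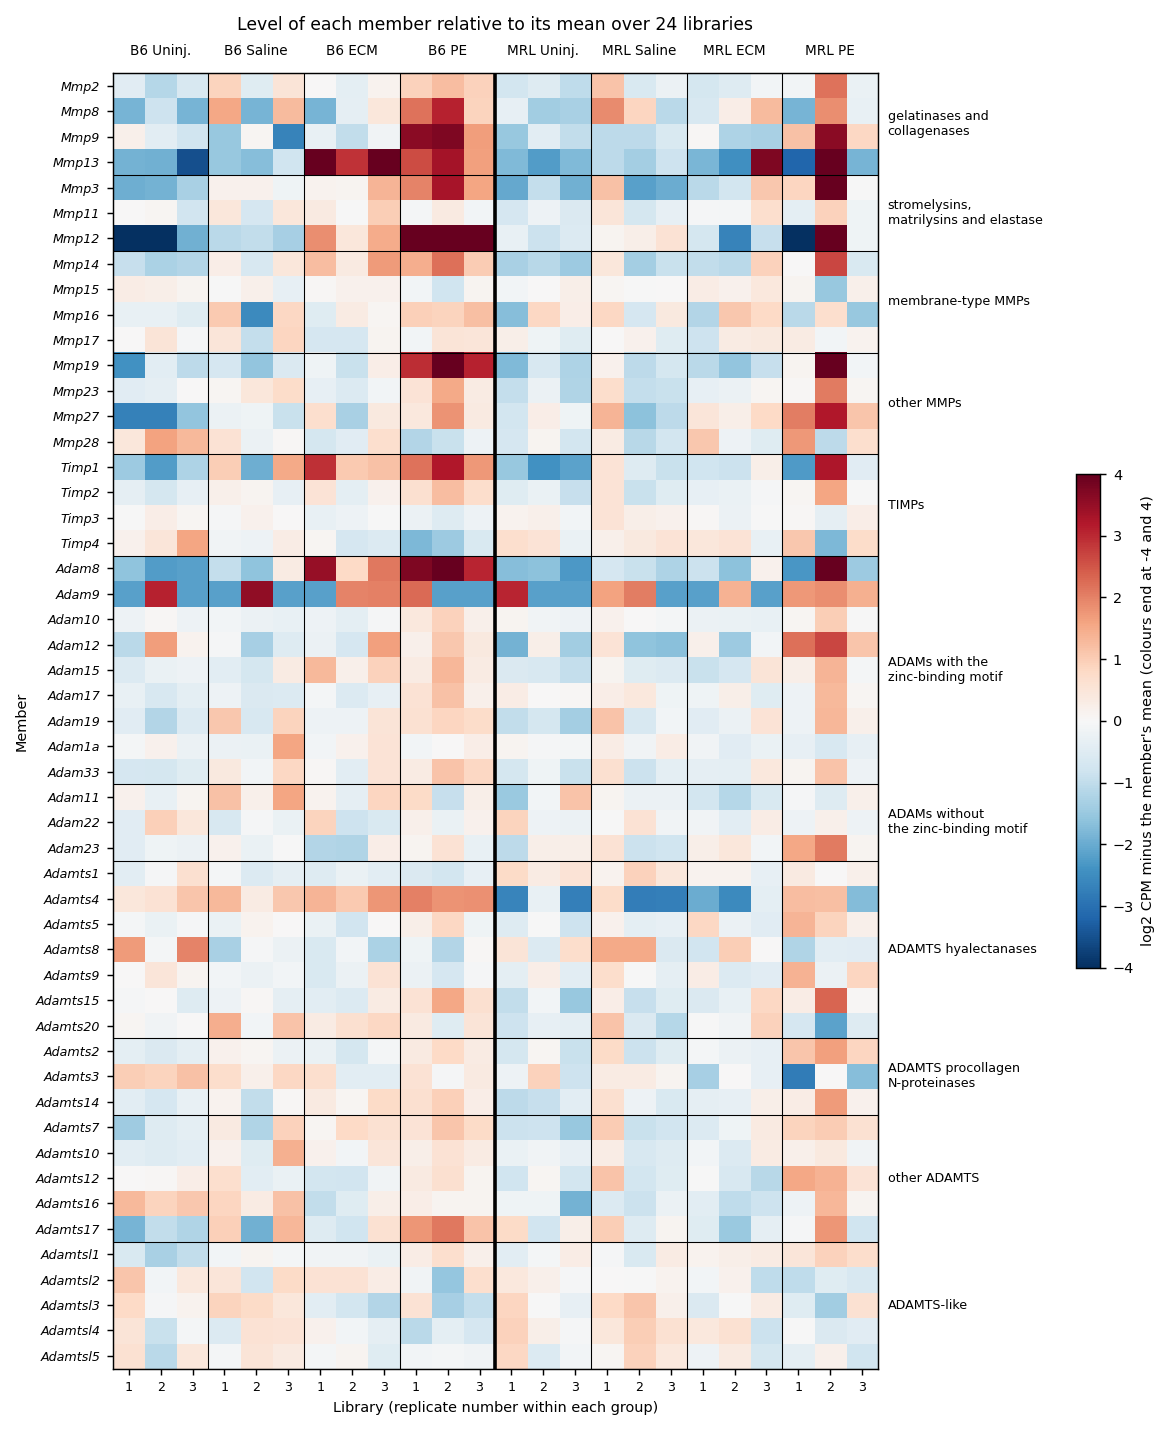
Level of each of the 51 members (rows, grouped by role) in each of the 24 libraries (columns, 3 per group), as log2 CPM minus the mean of that member over all libraries, with colours ending at -4 and 4. Mmp12, Mmp19 and Adam8 are red in PE-treated B6 mice and in replicate 2 of the PE-treated MRL mice, and Adam9 alternates between high and low within groups.

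Polyethylene against the control injury gave the most calls. In B6 mice, 6 of the 51 members rose (11.8%), against 5.37% of all genes that rose and 5.97% called in either direction: Mmp12, Mmp9 and Mmp19 among the matrix metalloproteases, and Adam8, Adam17 and Adam10 among the ADAMs. No member fell in the test, where 0.6% of all genes did. The median log2 fold change of the 51 members was 0.38, against 0.02 over all genes, and 66.7% of members and 51.2% of genes were higher with PE. At an unadjusted p under 0.05 there were 18 members (35.3%), against 25.2% of all genes. The PE libraries lay above all saline libraries for 19 members (37.3%), against 18.7% of all genes, and below them for 4 (7.84%), against 11.1%, which together are 23 (45.1%), against 29.7%. The number of calls rested on single libraries. Without replicate 1 or replicate 2 of the PE-treated B6 mice 0 members were called, and without any 1 of the saline-treated B6 libraries only Mmp9 was called. Without replicate 2 of the PE-treated MRL mice, which enters this comparison through the shared estimate of the spread, 10 members were called, against 17.5% of all genes. They then also held Mmp3, Mmp13, Mmp14 and Timp4.

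In MRL mice, limma called 0 members and 0 genes (0%) with PE against the control injury, while 18 members had an unadjusted p under 0.05 (35.3%, against 23.3% of all genes). The PE and saline libraries did not overlap for 10 members (19.6%), against 20.2% of all genes. The median log2 fold change of the members was 0.50, against 0.05 over all genes. Without replicate 2 of the PE-treated mice the median was 0.19, against -0.01 over all genes, and again 0 members were called. With 1 saline library of MRL mice left out (replicate 1), 8 members were called, namely Mmp3, Mmp27, Adam12, Adam23, Adamts2, Adamts4, Adamts7 and Adamts12, all higher with PE. Without replicate 3 of the PE-treated MRL mice, Mmp9, Adam23 and Adamts2 were called. The share of all genes called in these fits is not given, so the counts are not set against all genes. The plot of PE minus saline shows the B6 and MRL values of each member side by side.

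**Figure D3:**
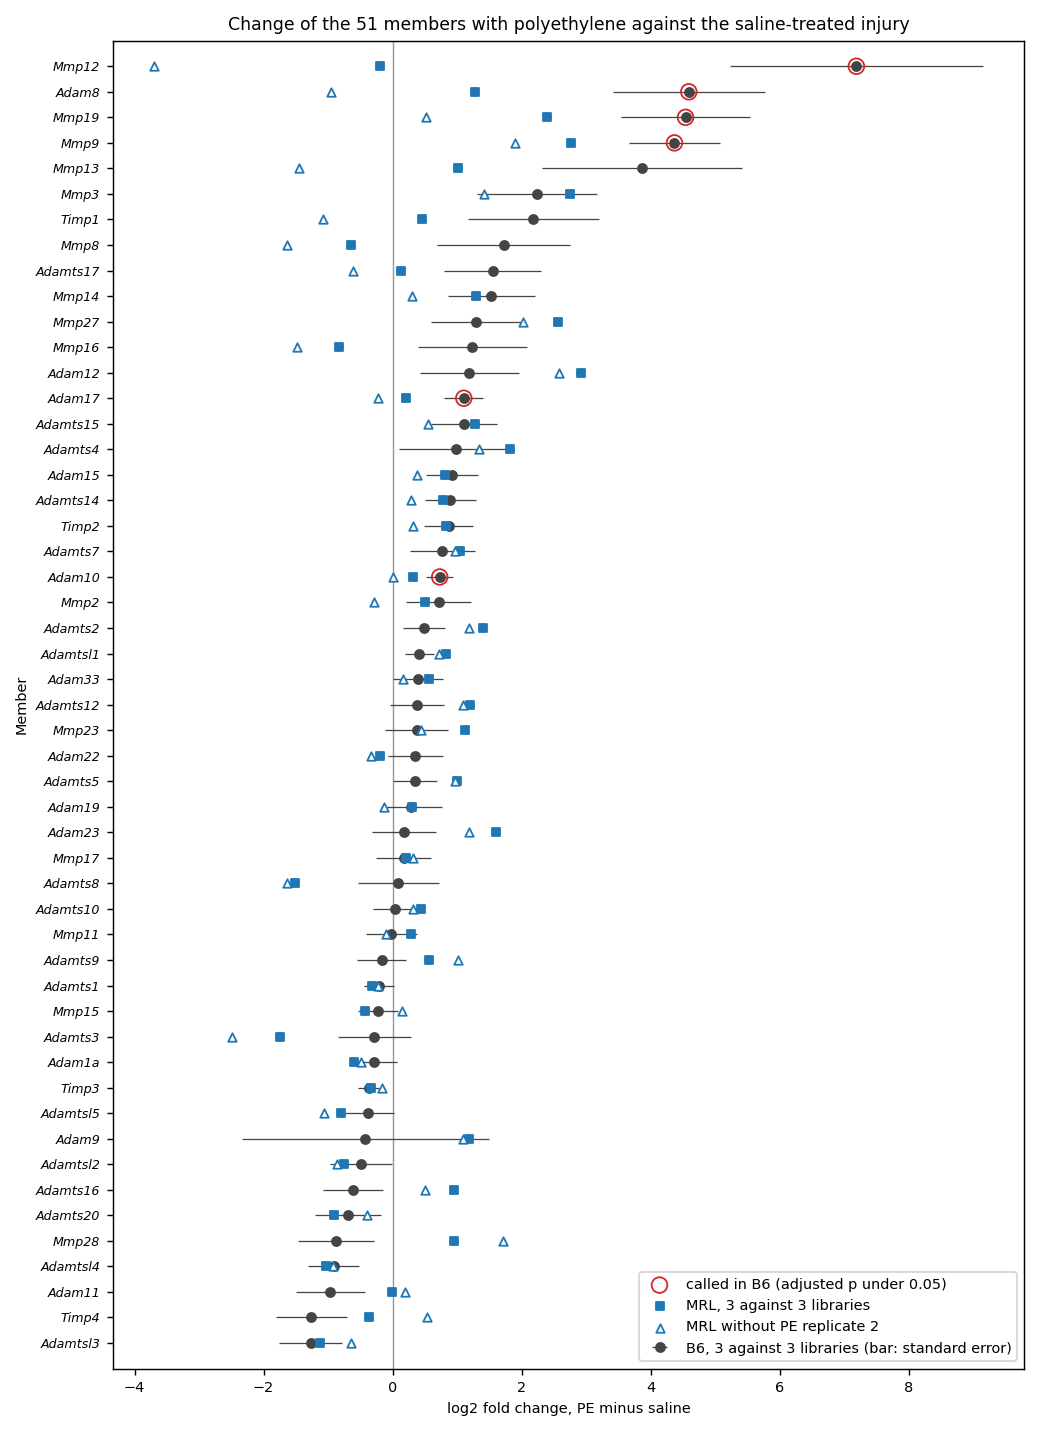
Log2 fold change of each of the 51 members between PE-treated and saline-treated mice, with the B6 value and its standard error (circles, called members ringed), the MRL value (squares) and the MRL value without replicate 2 of the PE-treated mice (triangles). Mmp12 stands at 7.19 in B6 mice, -0.20 in MRL mice and -3.70 in MRL mice without replicate 2, whereas Mmp9 is above 0 in all 3.

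The control injury itself gave 0 called members in either strain, and 0 genes (0%) were called in B6 or MRL mice. At an unadjusted p under 0.05 there were 6 members in B6 mice (11.8%, against 12.4% of all genes) and 1 member, Adam19, in MRL mice (1.96%, against 3.1%). Levels after the injury lay above all uninjured libraries for 11 members in B6 mice (21.6%, against 8.59% of all genes): Mmp3, Mmp12, Mmp13, Mmp14, Mmp23, Mmp27, Adam8, Adam11, Adam33, Adamts2 and Adamtsl1. In MRL mice this held for 6 members (11.8%, against 5.97%): Mmp12, Mmp13, Adam8, Adam15, Adam19 and Timp1. In either direction the groups did not overlap for 13 members in B6 mice (25.5%, against 15.9%) and 6 in MRL mice (11.8%, against 13%). The medians of the members were 0.27 in B6 and 0.31 in MRL mice, against -0.01 over all genes in each. With the saline library of few new fibre markers (B6 replicate 2) left out, Adam19, Adamts10 and Adamts17 were called in B6 mice. The share of all genes called without that library is not given.

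ECM against the control injury also gave 0 called members in either strain, where limma called 0.0283% of all genes in B6 mice and 0.00706% in MRL mice. At an unadjusted p under 0.05, 5 members differed in B6 mice (9.8%, against 3.99% of all genes), which were Mmp13, Adam8 and Adam15, higher with ECM, and Adamts16 and Adamtsl3, lower. In MRL mice there were 2 (3.92%, against 3.55%), Timp3 and Adamts1, both lower with ECM. Between the materials in B6 mice, Mmp9 was lower with ECM than with PE and was the only member called (1.96%, against 0.226% of all genes). There, 13 members had an unadjusted p under 0.05 (25.5%, against 20.6%), and levels with ECM lay below all PE libraries for 18 members (35.3%, against 19.5%). They lay above all PE libraries for 1 member (1.96%, against 14.6%). In either direction the groups did not overlap for 19 members (37.3%, against 34.1%). Without replicate 2 of the PE-treated MRL mice, 5 members were called there, Mmp9, Mmp12, Mmp19, Adam10 and Adam17, against 11.5% of all genes, all lower with ECM. In MRL mice, 0 members and 0% of genes were called between ECM and PE, and 17 members had an unadjusted p under 0.05 (33.3%, against 28.4% of all genes). Without replicate 3 of the PE-treated MRL mice 9 were called, of which 8 were lower with ECM and Mmp15 was higher. The share of all genes called without that replicate is not given. The comparisons of ECM and of PE with saline share the saline libraries, and those of PE with saline and with ECM share the PE libraries.

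Between strains, 2 members were called in uninjured muscle (3.92%, against 2.6% of all genes): Adamts16 was lower and Adamtsl1 was higher in MRL mice. After injury, 0 members were called by limma with saline, ECM or PE, where 2.51%, 2.66% and 3.35% of all genes were, and 4, 6 and 10 members had an unadjusted p under 0.05 (7.84%, 11.8% and 19.6%, against 13.3%, 13.4% and 19.1% of all genes). Between uninjured strains 5 members did (9.8%, against 10.9%). Without replicate 2, left out with its levels known, 17 members were called between PE-treated MRL and B6 mice (33.3%, against 24.6% of all genes). Of these, 12 were lower and 5 were higher in MRL mice. The largest differences were those of Mmp12, Adam8, Mmp13, Timp1 and Mmp19 among the lower members, and Timp4, Mmp28, Adamts9, Adamts1 and Timp3 were the 5 higher ones. The direct test of whether the effect of PE against saline differed between the strains called 0 members and 0% of genes, with 3 members and 4.34% of all genes at an unadjusted p under 0.05. Without that library it called 4 members (7.84%, against 4.41% of all genes), Mmp12, Mmp19, Adam8 and Adam17, each with a lower PE minus saline difference in MRL than in B6 mice. Leaving out that library also called Adam8 and Mmp13, both lower in MRL mice, between ECM-treated strains (3.92%, against 4.24% of all genes). It gave 2 members between uninjured strains, 1 in each direction (against 3.35%), and 0 members between saline-treated strains (against 3.48%), for ECM against saline in B6 mice (against 0.0494%), for ECM against PE in MRL mice (against 0.00706%) and for the strains' responses to ECM against PE (against 1.9%). With all libraries, the corresponding tests for the control injury, for ECM against saline and for ECM against PE called 0 members and 0% of genes each, with 3, 1 and 1 members at an unadjusted p under 0.05, against 4.03%, 2.26% and 3.69% of all genes.

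Mmp12, Mmp13, Mmp3, Mmp8 and Mmp27 are neighbours on mouse chromosome 9, where their starts (GRCm39) span 299 kb from that of Mmp13 at 7272514. Their promoters are shown because AP-1, a dimer of Fos and Jun proteins that answers inflammatory signals, is known to act through a short motif before the start of several Mmp genes. RefSeq promoter sequences (GRCm38.p6) were found for 34 of the 51 members, with 38 starts. The letters TGAGTCA, searched on both strands in the 250 bases before each start, were present at 4 of the 38 starts (10.5%) and at 4.46% of all 32851 starts in the table. TGAGTCA reads TGACTCA on the other strand, and the 2 spellings mark 1 and the same site. The 4 matches, in capitals with up to 30 bases on each side, 5′ to 3′ on the plus strand, lay at chr9:7272449-7272513 (Mmp13), chr9:7347300-7347366 (Mmp12), chr9:7445746-7445812 (Mmp3) and chr11:46055823-46055889 (Adam19).
Mmp13: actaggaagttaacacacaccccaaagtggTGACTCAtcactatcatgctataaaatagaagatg
Mmp12: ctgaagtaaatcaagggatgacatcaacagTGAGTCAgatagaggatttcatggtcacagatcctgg
Mmp3: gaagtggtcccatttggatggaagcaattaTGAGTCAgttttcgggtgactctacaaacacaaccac
Adam19: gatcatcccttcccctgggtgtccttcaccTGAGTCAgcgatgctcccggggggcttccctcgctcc
The motif began 35, 44, 46 and 131 bases before the start of Mmp13, Mmp12, Mmp3 and Adam19. For Mmp12 and Adam19 it stood at only 1 of the starts in the table. A match of these letters is a description of the sequence and does not show that a factor bound there.

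The 3 neighbours whose promoters hold these letters did not have their highest levels in the same treatment of B6 mice. Mmp13 had its highest mean with ECM, and Mmp12 and Mmp3 had theirs with PE. Mmp27, whose listed promoter lacks the letters, was at -2.62 ± 0.64 in uninjured and 0.58 ± 0.81 in PE-treated B6 mice (log2 CPM, mean ± SD, n = 3), and 2 of its 3 uninjured B6 libraries were below the level of 3 counts.

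**Figure D4:**
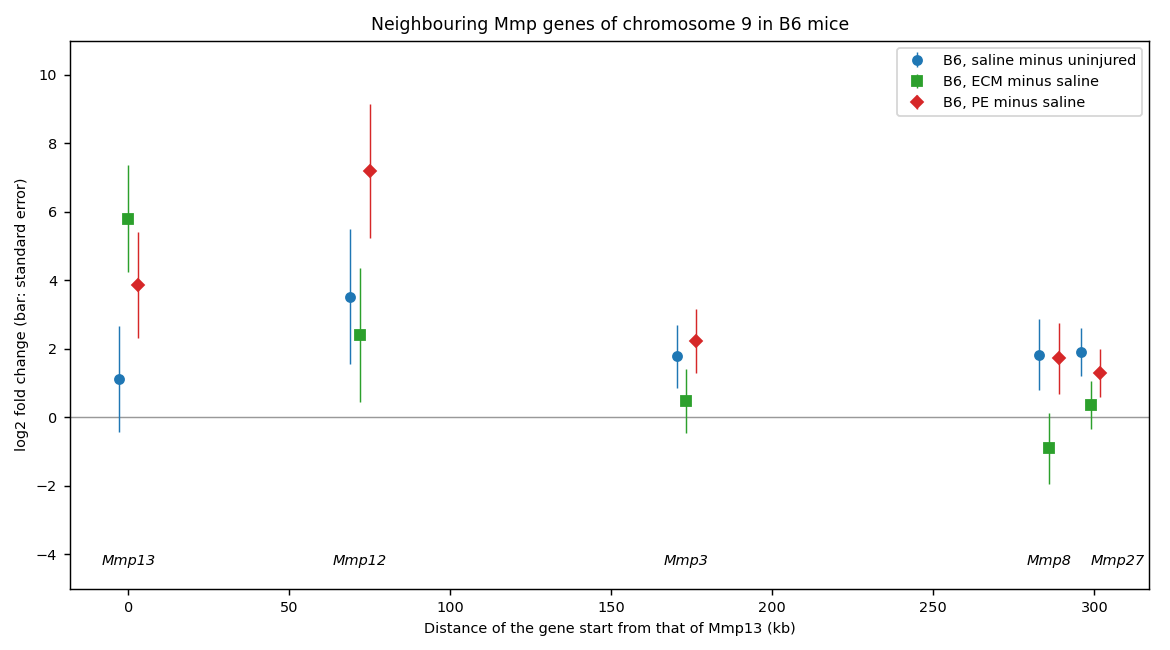
Log2 fold change with its standard error (limma) of the 5 neighbouring Mmp genes of chromosome 9 in B6 mice, by the distance of the gene start from that of Mmp13 in kb. With ECM against saline, Mmp13 stands at 5.80 and Mmp12 at 2.40, and with PE against saline they stand at 3.86 and 7.19, while the values of Mmp8 rest on libraries in part listed at 0.

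Mmp12, the elastase of macrophages, spanned more of the log2 scale than any other member. In B6 mice it was at -0.59, -0.044 and 3.78 in the 3 uninjured libraries, 4.63, 4.71 and 4.38 with saline, 7.56, 6.16 and 7.20 with ECM and 11.57, 12.60 and 11.11 with PE. No 2 of these 4 groups overlapped. In MRL mice it was at 5.42, 4.83 and 5.16 in uninjured muscle, 5.80, 5.94 and 6.28 with saline and 4.98, 3.04 and 4.78 with ECM, so that uninjured MRL libraries lay above all saline-treated B6 libraries and the ECM libraries lay below the saline libraries. With PE the MRL levels were -0.90, 12.81 and 5.53, which is both the lowest and the highest level of any MRL library. PE against saline raised Mmp12 in B6 mice by 7.19 (standard error 1.96, adjusted p = 0.0388 by limma), a 146-fold increase on the scale with the added counts. In MRL mice the difference was -0.20 (standard error 1.96), and without replicate 2 it was -3.70 (standard error 1.29, adjusted p = 0.221). The PE effect in MRL minus that in B6 mice was -7.38 (adjusted p = 0.988), and -10.88 without that library (adjusted p = 0.000908). Between PE-treated strains the difference was -5.95 with an adjusted p of 0.102, and -9.45 with an adjusted p of 4.00e-05 without it. The libraries with Mmp12 above 11 on the log2 scale are the 4 with a macrophage sum above 860 CPM and a multinucleate cell sum above 117 CPM.

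Mmp3 (stromelysin-1), which cleaves proteoglycans and activates other Mmp precursors, was at 0.53, 0.59 and 1.19 in uninjured, 2.65, 2.67 and 2.32 in saline-treated, 2.63, 2.61 and 3.86 in ECM-treated and 4.48, 5.79 and 4.08 in PE-treated B6 mice. In MRL mice it was at 0.44, 1.54 and 0.57 without injury, 3.66, 0.31 and 0.51 with saline, 1.41, 1.76 and 3.56 with ECM and 3.35, 6.89 and 2.47 with PE. In each injured MRL group 1 library lay well above the others, replicate 1 with saline, replicate 3 with ECM and replicate 2 with PE. PE minus saline was 2.23 in B6 mice (adjusted p = 0.143, and 0.0382 without replicate 2 of the PE-treated MRL mice) and 2.74 in MRL mice (adjusted p = 0.122), or 1.42 in MRL mice without that library (adjusted p = 0.465). Mmp11 (stromelysin-3), an Mmp of stromal cells, stayed between 1.56 and 3.31 over all 24 libraries.

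**Figure D5:**
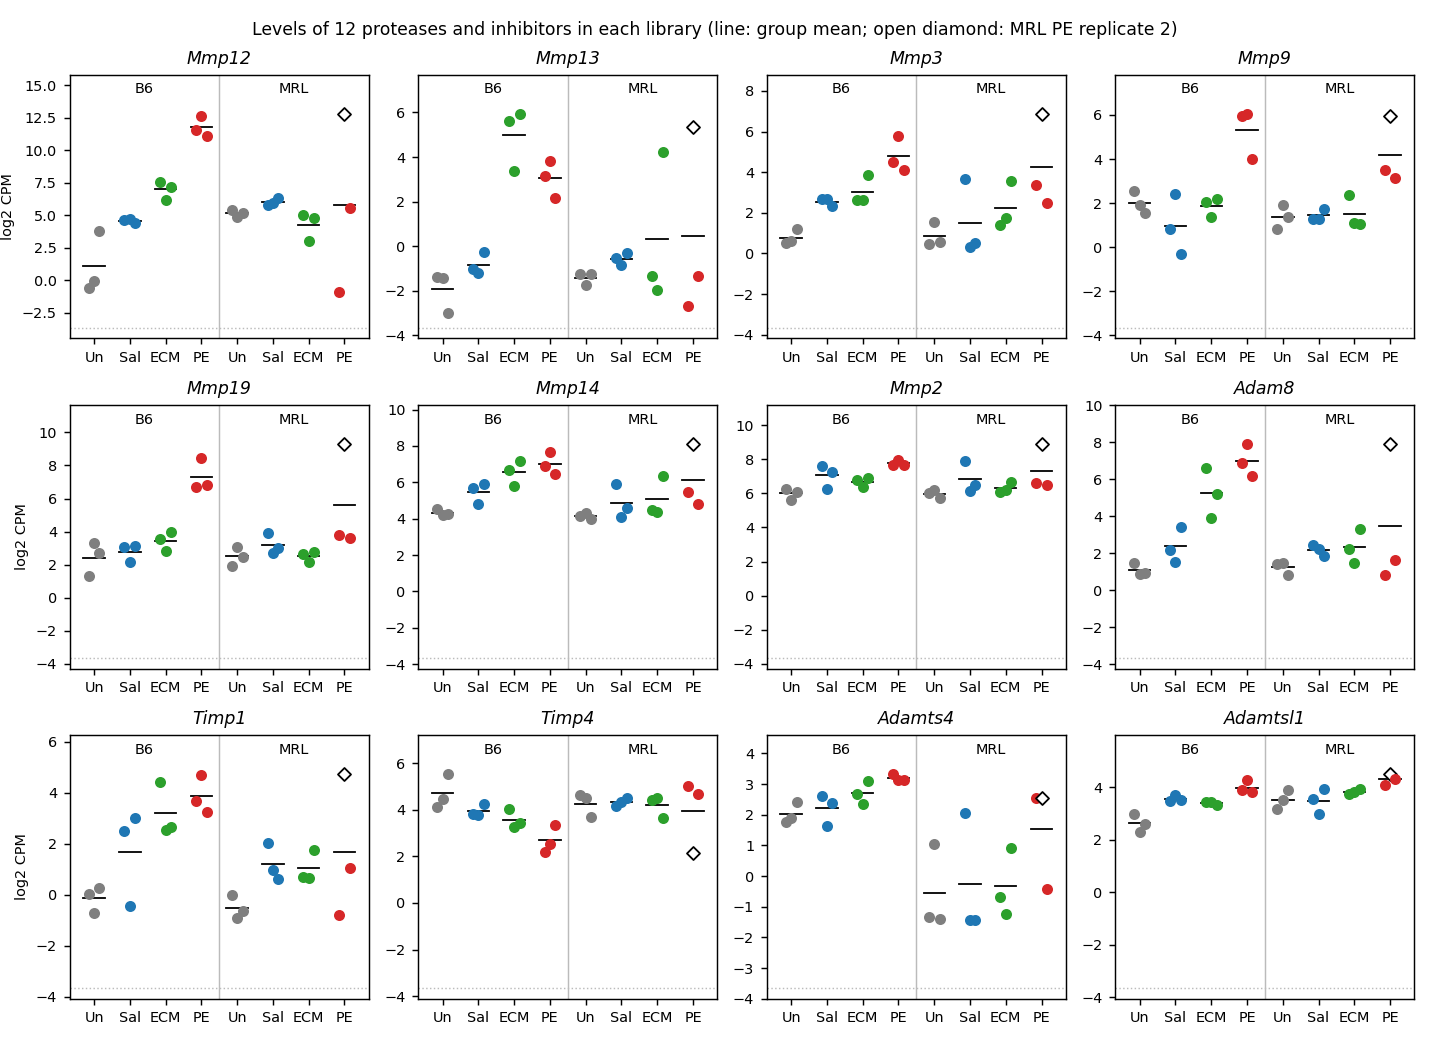
Log2 CPM of 12 members in each of the 24 libraries, by strain and treatment (Un, uninjured; Sal, saline), with 1 point per library, a line at each group mean, an open diamond for replicate 2 of the PE-treated MRL mice and a dotted line at the level of a count of 0. Mmp12 reaches 12.60 in PE-treated B6 mice, and Mmp13 is highest in ECM-treated B6 mice, at 3.39 to 5.95.

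Mmp13, the main interstitial collagenase of the mouse, had its highest mean level with ECM in B6 mice, although no comparison of 2 groups with all libraries called it. It was at -1.37, -1.42 and -3.01 in uninjured and -1.0, -1.19 and -0.28 in saline-treated B6 mice, against 5.61, 3.39 and 5.95 with ECM and 3.13, 3.83 and 2.16 with PE. The ECM and PE libraries overlapped with each other, and both lay above every saline library. Of the 12 MRL libraries, 10 stayed between -2.67 and -0.31, and only replicate 3 with ECM, at 4.24, and replicate 2 with PE, at 5.36, lay higher. ECM minus saline was 5.80 in B6 mice (standard error 1.55, unadjusted p = 0.00138 and adjusted p = 0.722 by limma) and 0.88 in MRL mice. MRL minus B6 with ECM was -4.66 (adjusted p = 0.147), and -6.62 without replicate 3 of the ECM-treated MRL mice (adjusted p = 0.0157). Without replicate 2 of the PE-treated MRL mice, Mmp13 was called lower in MRL mice with ECM and with PE, where the differences were -4.66 and -5.05 (adjusted p = 0.016 and 0.00554). With all libraries the difference with PE was -2.60 (adjusted p = 0.38).

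Mmp9 (gelatinase B, chromosome 2, 164780439 to 164797771, plus strand), which neutrophils, macrophages and osteoclasts secrete, was the member whose call with PE in B6 mice held without any 1 of the saline libraries, though not without replicate 1 or 2 of the PE libraries. In B6 mice it was at 2.55, 1.93 and 1.55 without injury, 0.83, 2.40 and -0.33 with saline, 2.04, 1.35 and 2.20 with ECM and 5.94, 6.07 and 4.0 with PE. In MRL mice the levels were 0.84, 1.93 and 1.35 without injury, 1.30, 1.28 and 1.74 with saline, 2.37, 1.10 and 1.05 with ECM and 3.51, 5.95 and 3.15 with PE. In both strains every PE library lay above every other library of the strain. PE minus saline was 4.37 in B6 mice (standard error 0.71, adjusted p = 0.00999), a 20.7-fold increase, and 2.76 in MRL mice (standard error 0.71, adjusted p = 0.0986). Without replicate 2 it was 1.89 in MRL mice (adjusted p = 0.223), and the difference between the strains' responses was -1.61 with all libraries (adjusted p = 0.988) and -2.48 without it (adjusted p = 0.126). ECM minus PE was -3.47 in B6 mice (adjusted p = 0.0481), and the call was lost without any 1 library of the ECM group or without replicate 1 or 2 of the PE group.

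Mmp2 (gelatinase A), a product of fibroblasts, was at 6.0 ± 0.35 in uninjured, 7.05 ± 0.70 in saline-treated, 6.68 ± 0.28 in ECM-treated and 7.77 ± 0.18 in PE-treated B6 mice (mean ± SD, n = 3). In MRL mice the means were 5.98 ± 0.25 without injury, 6.83 ± 0.93 with saline and 6.31 ± 0.31 with ECM, and the PE libraries were at 6.63, 8.92 and 6.47. No comparison with all libraries called it. Mmp8, the collagenase stored by neutrophils, was listed at 0 in 5 libraries of 24 and reached 1.28 in replicate 2 of the PE-treated B6 mice. Its PE levels in B6 mice were 0.37, 1.28 and -0.91 against -0.25, -3.65 and -0.53 with saline, and in MRL mice they were -3.65, 0.074 and -2.09 against 0.11, -0.94 and -2.88, at depths where most differences were not detectable. Of the 4 gelatinases and collagenases, all 4 were higher with PE than with saline in B6 mice, 1 of them called, with a median of 2.79. Over all genes, 51.2% were higher and 5.97% were called, and with 4 members these counts do not set the group apart.

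Mmp14, the membrane-type protease that activates Mmp2 on the cell surface, was at 4.51, 4.18 and 4.28 in uninjured, 5.71, 4.81 and 5.90 in saline-treated, 6.69, 5.81 and 7.15 in ECM-treated and 6.88, 7.65 and 6.48 in PE-treated B6 mice. In MRL mice the uninjured libraries were at 4.14, 4.32 and 3.99, the saline libraries at 5.90, 4.08 and 4.56, the ECM libraries at 4.46, 4.37 and 6.37 and the PE libraries at 5.47, 8.12 and 4.82. The same 3 MRL libraries that were high in Mmp3 were the highest of their group here. The difference between PE and saline was 1.53 in B6 mice (adjusted p = 0.165), and MRL minus B6 with PE was -1.86 without replicate 2 (adjusted p = 0.0227) and -0.87 with it (adjusted p = 0.52). The other membrane-type members Mmp15, Mmp16 and Mmp17 were called in no comparison of 2 groups with all libraries.

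Mmp19 (chromosome 10, 128626773 to 128636695, plus strand), a secreted protease of basement membrane proteins, was at 6.67, 8.47 and 6.79 in PE-treated B6 mice, and at no more than 3.98 in the other 9 B6 libraries. The difference between PE and saline was 4.54 (standard error 0.99, adjusted p = 0.0222), a 23.3-fold increase. In MRL mice it was at 3.82, 9.32 and 3.62 with PE and 3.88, 2.67 and 3.03 with saline, where the groups overlapped, and PE minus saline was 2.39, or 0.52 without replicate 2. MRL minus B6 with PE was -1.72 with all libraries (adjusted p = 0.361) and -3.59 without replicate 2 (adjusted p = 0.000211). Mmp27, a protease of limited known function, was at 1.76, 2.91 and 0.83 in PE-treated MRL mice with replicate 3 inside the range of the other MRL groups, which reached 1.06. Mmp28 (epilysin) was at 2.42, 3.58 and 3.26 in uninjured and 0.81, 1.08 and 1.77 in PE-treated B6 mice, and at 3.70, 0.91 and 2.65 in PE-treated MRL mice. MRL minus B6 with PE was 1.20 with all libraries (adjusted p = 0.278), and 1.96 without replicate 2, where it was called (adjusted p = 0.0139).

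The 4 TIMPs differed in direction, with 2 higher and 2 lower with PE than with saline in B6 mice, and 0 called. Over all genes, 51.2% were higher and 5.97% were called in that comparison. Timp1, the inducible inhibitor, was at 0.047, -0.72 and 0.26 in uninjured, 2.49, -0.44 and 3.01 in saline-treated, 4.44, 2.55 and 2.67 in ECM-treated and 3.67, 4.71 and 3.23 in PE-treated B6 mice. The low saline library is replicate 2, in which new fibre markers were also low. In MRL mice the levels were -0.0049, -0.90 and -0.64 without injury, 2.05, 0.98 and 0.62 with saline, 0.71, 0.65 and 1.75 with ECM and -0.77, 4.74 and 1.06 with PE. With ECM every B6 library lay above every MRL library, and MRL minus B6 was -2.18 (adjusted p = 0.356). With PE it was -2.20 (adjusted p = 0.247), and without replicate 2 it was -3.73 (adjusted p = 0.00334).

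Timp4, which is made in muscle and heart, stood lower with PE than with saline in B6 mice. It was at 4.12, 4.45 and 5.53 in uninjured, 3.80, 3.75 and 4.26 in saline-treated, 4.03, 3.27 and 3.41 in ECM-treated and 2.17, 2.51 and 3.36 in PE-treated B6 mice, where all PE libraries lay below all saline libraries. In MRL mice it was at 4.63, 4.49 and 3.67 without injury, 4.15, 4.33 and 4.50 with saline, 4.40, 4.51 and 3.65 with ECM and 5.02, 2.16 and 4.69 with PE, where only replicate 2 was low. PE minus saline was -1.26 in B6 mice (adjusted p = 0.158), and it was called without replicate 2 of the PE-treated MRL mice (adjusted p = 0.0231). MRL minus B6 with PE was 1.28 (adjusted p = 0.209) and 2.18 without that library (adjusted p = 0.00078). The muscle fibre sum was 42883 to 94235 CPM in PE-treated and 85951 to 162853 CPM in saline-treated B6 mice, and lowest in that MRL library. Timp4 did not follow this sum throughout. Saline replicate 3 of B6 mice, at 85951 CPM, had Timp4 at 4.26, and PE replicate 1, at 84759 CPM, had it at 2.17. The part of fibre content in these levels was not tested.

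Timp2, which also helps Mmp14 activate Mmp2, was at 7.64 ± 0.29 in saline-treated and 8.51 ± 0.31 in PE-treated B6 mice (mean ± SD, n = 3), and at 7.71, 9.22 and 7.65 in PE-treated MRL mice. Timp3, which binds to the matrix and also inhibits ADAM17, varied least among the TIMPs, from 6.14 to 7.20 over the 24 libraries. Its lowest levels were 6.14 in replicate 2 of the PE-treated B6 mice and 6.29 in replicate 2 of the PE-treated MRL mice. With all libraries, 0 of the 4 TIMPs were called between 2 groups, and without that library Timp1, Timp3 and Timp4 were called between PE-treated strains.

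The ADAMs were divided by whether the longest open reading frame of a coding transcript holds the zinc-binding motif of the active site (HEXXHXXGXXH, where X is any amino acid). It was present in 9 of 12 members and absent from Adam11, Adam22 and Adam23, which are known as adhesion proteins of neurons without protease activity. In B6 mice PE raised 3 of the 9 with the motif and 0 of the 3 without it, where 5.37% of all genes rose, and with 3 members a count of 0 does not set these ADAMs apart. The median PE minus saline was 0.73 with the motif and 0.18 without it. Adam9 could not be read, because it was listed at 0 in 10 libraries, at the same log2 value after rounding in the other two low libraries, and at -0.089 to 2.06 in all others, with both kinds in every group except PE-treated MRL mice. In uninjured B6 mice, for example, it was at -3.65, 1.60 and -3.65.

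Adam8 (chromosome 7, 139558845 to 139572475, minus strand), a protease of neutrophils, macrophages and osteoclasts, was at 1.50, 0.90 and 0.95 in uninjured, 2.18, 1.52 and 3.44 in saline-treated, 6.61, 3.93 and 5.22 in ECM-treated and 6.85, 7.89 and 6.17 in PE-treated B6 mice. Each step lay above the group before it except that ECM and PE overlapped. In MRL mice it was at 1.43, 1.47 and 0.84 without injury, 2.44, 2.24 and 1.87 with saline, 2.25, 1.49 and 3.30 with ECM and 0.80, 7.92 and 1.66 with PE, so that replicates 1 and 3 with PE lay below all saline libraries. PE minus saline was 4.59 in B6 mice (standard error 1.18, adjusted p = 0.0313), a 24.1-fold increase, and 1.28 in MRL mice (adjusted p = 0.509), or -0.95 without replicate 2. The difference between these responses was -3.32 (adjusted p = 0.988), and -5.55 without that library (adjusted p = 0.00106). With ECM, MRL minus B6 was -2.91 (adjusted p = 0.279, and 0.00641 without that library, which enters through the shared spread). The 3 highest levels were those of replicate 2 of the PE-treated MRL mice and replicates 2 and 1 of the PE-treated B6 mice, which were also the 3 libraries with the highest macrophage sums. Below them the order differed. Replicate 1 of the ECM-treated B6 mice, at 6.61 with a macrophage sum of 860 CPM, lay above replicate 3 of the PE-treated B6 mice, at 6.17 with 1442 CPM.

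Adam17 (chromosome 12, 21373510 to 21423672, minus strand), which releases TNF and EGF receptor ligands, and Adam10 (chromosome 9, 70586221 to 70687511, plus strand), which cuts Notch receptors, had small differences with no overlap in B6 mice. Adam17 was at 6.09, 6.69 and 5.71 with PE, and all other B6 libraries lay between 4.86 and 5.42. The difference between PE and saline was 1.10 (standard error 0.30, adjusted p = 0.0405). Adam10 was at 5.80, 6.29 and 5.58 with PE and between 4.99 and 5.42 in all other B6 libraries, with a difference of 0.73 (standard error 0.21, adjusted p = 0.0445). In PE-treated MRL mice Adam17 was at 5.31, 6.79 and 5.60 and Adam10 at 5.45, 6.34 and 5.37, and in both replicate 2 lay above all other MRL libraries. For Adam17 the response in MRL minus that in B6 mice was -0.89 (adjusted p = 0.988), and -1.34 without replicate 2 (adjusted p = 0.0308).

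Adam12, a protease of fusing and regenerating muscle cells and of activated mesenchymal cells, stood higher in MRL than in B6 mice with PE. It was at 5.06, 5.54 and 3.98 in PE-treated MRL mice, above all other MRL libraries, of which the highest was 3.41 with saline, and at 3.06, 3.95 and 3.26 in PE-treated B6 mice, all below the MRL libraries. Uninjured B6 libraries varied widely, at 1.80, 4.53 and 3.01. PE minus saline was 2.91 in MRL mice (standard error 0.77, adjusted p = 0.103) and 2.57 without replicate 2, and MRL minus B6 with PE was 1.44 (adjusted p = 0.32), or 1.10 without it (adjusted p = 0.37). Adam19, known from the developing heart and nerve, was at 5.69, 3.97 and 5.49 in saline-treated and 4.15, 3.42 and 4.05 in uninjured B6 mice, with the lowest saline level in replicate 2. The saline libraries of MRL mice were at 5.74, 3.97 and 4.48, and saline minus uninjured was 1.18 in B6 mice (adjusted p = 0.339) and 1.14 in MRL mice (adjusted p = 1). With that low library left out it was 1.72 in B6 mice (adjusted p = 0.0492).

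The ADAMTS proteases that cleave large proteoglycans (hyalectans) gave 0 calls with PE against saline in B6 mice among 7 members, with a median of 0.09. Of all genes, 5.97% were called there, so a count of 0 among 7 does not set these members apart. Adamts4, an aggrecanase, was at 1.77, 1.89 and 2.42 in uninjured, 2.62, 1.63 and 2.40 in saline-treated, 2.67, 2.36 and 3.09 in ECM-treated and 3.33, 3.12 and 3.14 in PE-treated B6 mice. In MRL mice the levels were -1.32, 1.03 and -1.41 without injury, 2.05, -1.44 and -1.43 with saline, -0.67, -1.23 and 0.92 with ECM and 2.55, 2.53 and -0.43 with PE. Within a treatment, MRL libraries lay below all B6 libraries without injury, with ECM and with PE, and with saline only replicate 1 reached the B6 range. The differences were -2.59, -2.49, -3.03 and -1.65 (adjusted p = 0.181, 0.19, 0.0801 and 0.319 by limma), so none was called. With PE it was -2.14 without replicate 2 of the MRL mice (adjusted p = 0.116). With the saline library of MRL replicate 1 left out, the difference with saline was -3.65 (adjusted p = 0.0145), and without replicate 3 of the ECM-treated MRL mice that with ECM was -3.66 (adjusted p = 0.0469).

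Adamts1, an aggrecanase and versicanase of vessels and muscle, had a higher mean in MRL than in B6 mice in every treatment, without overlap only with saline and with PE. It was at 5.31, 4.84 and 5.05 in B6 and 5.55, 6.30 and 5.85 in MRL mice with saline, and at 4.82, 4.67 and 5.08 and 5.74, 5.40 and 5.61 with PE, without overlap in either pair. The differences were 0.83 (adjusted p = 0.0755) and 0.72 (adjusted p = 0.0965), and with PE it was 0.82 without replicate 2 (adjusted p = 0.0286). Without injury Adamts1 was at 4.98, 5.34 and 6.03 in B6 and 6.15, 5.71 and 5.93 in MRL mice. With ECM it was at 4.87, 5.13 and 4.97 in B6 and 5.52, 5.54 and 5.07 in MRL mice. Adamts9, which acts on versican and on the endothelium, was at 3.35, 2.92 and 3.55 in PE-treated B6 and 4.99, 3.37 and 4.44 in PE-treated MRL mice. MRL minus B6 was 0.99 with all libraries (adjusted p = 0.15), and 1.45 without replicate 2, where it was called (adjusted p = 0.00627). Adamts5, the main aggrecanase of mouse cartilage, was at 6.36, 5.88 and 5.18 in PE-treated and 5.15, 4.60 and 4.65 in saline-treated MRL mice, with a difference of 1.0 (adjusted p = 0.122) and of 0.97 without replicate 2 (adjusted p = 0.272).

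Adamts15, a versicanase that acts in muscle development, was at 3.99, 4.95 and 4.05 in PE-treated and 3.20, 3.46 and 3.03 in saline-treated B6 mice, without overlap, with a difference of 1.10 (adjusted p = 0.188). In PE-treated MRL mice it was at 3.69, 5.74 and 3.46, with replicate 2 the highest of all 24 libraries. Adamts20, another versican-cleaving member, was at 5.22, 3.66 and 4.92 with saline in B6 mice, where replicate 2 was low, and at 4.92, 3.20 and 2.63 in MRL mice, where replicate 1 was high. In PE-treated mice it was at 4.12, 3.30 and 4.29 in B6 and 3.11, 1.65 and 3.24 in MRL mice, a difference of -1.24 (adjusted p = 0.196) and of -0.73 without replicate 2 (adjusted p = 0.325).

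Adamts2, Adamts3 and Adamts14 remove the amino-terminal propeptide of fibrillar procollagens. Adamts2 was at 6.78, 7.31 and 6.52 in PE-treated MRL mice, above all other 21 libraries, and at 6.03, 6.45 and 5.98 in PE-treated B6 mice. The difference between PE and saline was 1.40 in MRL mice (standard error 0.32, adjusted p = 0.0901) and 0.49 in B6 mice (adjusted p = 0.351), and the MRL value without replicate 2 was 1.18 (adjusted p = 0.18). Adamts3 was low in replicates 1 and 3 of the PE-treated MRL mice, at -2.77, 0.025 and -1.68, against 0.58, -0.033 and 0.37 in B6 mice, a difference of -1.78 (adjusted p = 0.0909). Without replicate 2 it was called lower in MRL mice, with a difference of -2.53 (adjusted p = 0.00149). That call rests on replicates 1 and 3, of which replicate 1 was below the level of 3 counts and not told apart from 0. Adamts14 was at 2.98, 3.30 and 2.63 with PE and 2.49, 1.36 and 2.38 with saline in B6 mice, a difference of 0.89 (adjusted p = 0.169).

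Among the 5 other ADAMTS members, Adamts16 (chromosome 13, 70875915 to 70989935, minus strand), a protease linked to kidney and gonad development, was at 1.45, 1.06 and 1.25 in uninjured B6 mice. In uninjured MRL mice it was at -1.72 in replicate 3 and, after rounding, at 0 in replicates 1 and 2. MRL minus B6 was -1.83 (standard error 0.46, adjusted p = 0.0363), a call that was lost without any 1 of the B6 libraries or replicate 3 of the MRL libraries. With saline the libraries again did not overlap, at 1.02, 0.49 and 1.33 in B6 and -0.36, -0.68 and -0.064 in MRL mice, a difference of -1.32 (adjusted p = 0.188). With PE the B6 libraries were at 0.43, 0.28 and 0.27, within the range of the MRL libraries at -0.02, 1.49 and 0.29. Adamts12, which processes matrix proteins of cartilage, was at 5.18, 5.01 and 4.19 in PE-treated and 3.63, 2.98 and 2.53 in ECM-treated MRL mice, and ECM minus PE was -1.75 (adjusted p = 0.0558), or -1.64 without replicate 2 (adjusted p = 0.118).

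Adamtsl1 (chromosome 4, 85432409 to 86346622, plus strand), an ADAMTS-like glycoprotein of the matrix, was at 3.0, 2.29 and 2.62 in uninjured B6 and 3.17, 3.53 and 3.90 in uninjured MRL mice. MRL minus B6 was 0.90 (standard error 0.23, adjusted p = 0.0394), a call that was lost without replicate 2 or 3 of either strain. In injured B6 mice it was at 3.49, 3.71 and 3.51 with saline and 3.89, 4.26 and 3.81 with PE, so that all injured B6 libraries lay above the uninjured ones, and saline minus uninjured was 0.94 (adjusted p = 0.223). The test of whether the effect of the control injury differed between strains gave -0.98 (adjusted p = 1). Adamtsl2, which binds fibrillin and latent TGF-beta binding protein, was at 1.63 ± 0.61 in uninjured and 0.82 ± 1.13 in PE-treated B6 mice, and at 1.34 ± 0.24 and 0.45 ± 0.27 in MRL mice (mean ± SD, n = 3). Adamtsl4, which binds fibrillin microfibrils, was at 4.65 ± 0.71, 4.08 ± 0.34, 5.17 ± 0.50 and 4.46 ± 0.30 in the same groups. With all libraries, 4 of the 5 ADAMTS-like members were lower with PE than with saline in each strain. Their medians were -0.49 in B6 and -0.79 in MRL mice, and 0 of them were called. Over all genes, 51.2% were higher in B6 and 54.3% in MRL mice, and 5.97% and 0% were called. The MRL median without replicate 2 is not given.

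Other genes of the pathway were read from 2 lists, 26 regulators of these proteases and 26 of 28 listed substrates. With PE against saline in B6 mice, 5 of the 26 regulators rose and 0 fell, where 5.37% of all genes rose and 0.6% fell, with a median log2 fold change of 0.39 against 0.02 over all genes. Plaur, the receptor that places urokinase on the cell surface, rose by 5.21 (standard error 1.01, adjusted p = 0.0177). It was at 5.48, 6.42 and 4.94 with PE and 0.25, 0.19 and 0.75 with saline in B6 mice, and at 0.21, 6.0 and 0.13 with PE in MRL mice. Lrp1, a receptor that clears proteases and TIMPs, and Thbs1, a matricellular protein, rose by 1.80 and 1.78 (adjusted p = 0.0498 and 0.0385). Plau, which encodes urokinase, and Tspan14, a partner of ADAM10, rose by 1.72 and 1.37 (adjusted p = 0.0320 and 0.0245). Among the substrates, Tnf, the cytokine that ADAM17 releases, rose by 4.70 (standard error 0.80, adjusted p = 0.00999), and 0 fell. Tnf was at 2.66, 3.34 and 1.45 with PE and -3.03, -2.22 and -1.40 with saline in B6 mice, and at -1.90, 2.34 and -1.25 with PE in MRL mice, where only replicate 2 was high. Its saline level in replicate 1 was below that of 3 counts. These calls rested on single libraries as those of the members did. Each of these 6, Tnf and the 5 regulators, was kept without replicate 3 of the PE-treated B6 mice and lost without replicate 1 or 2, and of the 6 only Tnf was kept without any 1 of the saline libraries. All 6 were kept without replicate 2 of the PE-treated MRL mice.

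In MRL mice 0 genes of either list were called between PE and saline by limma, where 0% of all genes were. Between PE-treated strains, Pcolce2, an enhancer of procollagen C-proteinase, was higher in MRL mice by 1.99 (standard error 0.47, adjusted p = 0.0204) and was the only regulator called. It was higher by 2.12 without replicate 2 (adjusted p = 0.00669). Pcolce2 lost its call without replicate 1 of the PE-treated B6 or replicate 1 or 3 of the PE-treated MRL mice. In all other comparisons of 2 groups, and in the 4 tests of a difference between the strains' responses, 0 of the 26 regulators were called.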

How the data were processed

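RNA of whole quadriceps was sequenced after poly(A) selection with an ERCC spike-in. The authors quantified transcripts with kallisto against Ensembl cDNA of GRCm39, summed them to genes with tximport (lengthScaledTPM), kept genes above 1 CPM in at least 3 libraries and normalized with edgeR's TMM, and deposited 1 matrix of log2 CPM values with a prior count of 2. Reads that near-identical genes share may be divided between them by kallisto. Of 14160 rows, 1 without a symbol was left out. The study's voom fit needs counts, so limma 3.58.1 in R 4.3.3 was fitted to the deposited log2 values with a trended prior variance, 1 coefficient per group and no block. Other settings tried were equal library totals, a log2(CPM + 1) scale, a filter keeping genes whose mean log2 CPM reached 1, library weights, a replicate block, a term for the second sequencing index (8 codes), the compared groups alone and each library left out. The procedure was tested on simulated data.

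Members and lists were chosen with earlier results of these data known. The genes named are the members called in a comparison (up to 5 in each direction where over 10 are called), 26 members described by their levels, the role groups, and called genes of the regulator and substrate lists, of which 1 substrate is not reported here. Members named outside this rule (Adam15, Adamts12, Adamts14, Mmp11, Mmp27 and Mmp28 among them, and those with an unadjusted p under 0.05, without overlap or called only without 1 library) were chosen after their values were seen. The 3 correlations of same-numbered libraries across genes all exceeded 0.1 only between PE-treated strains, at 0.105, 0.532 and 0.439. They were 0.202, 0.376 and 0.0468 between uninjured strains, and 0.234, 0.225 and -0.221 between saline-treated strains. Positions are GRCm39 (GENCODE), and promoters are RefSeq sequences of GRCm38.p6, so the 2 sets of coordinates are not interchangeable. No RefSeq proteins were used, and the ADAM motif was searched in open reading frames of GENCODE transcripts. Python 3.11.15, pandas 2.3.3, Biopython 1.88 and matplotlib 3.10.9 made the summaries and figures.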

Additional observations from a re-analysis of the deposited data

How the results depend on the processing

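Counts of called members depended on the setting. The share of all genes called is given above for the main fit and without replicate 2 of the PE-treated MRL mice only. Under the other settings calls may have changed for all genes alike, so the counts below are values only. Library weights gave 4, 26, 6 and 30 members between uninjured, saline-, ECM- and PE-treated strains, 22, 12, 34 and 23 in B6 mice (saline against uninjured, ECM against saline, PE against saline, ECM against PE), 16 and 7 in MRL mice (PE against saline, ECM against PE), 4, 5, 21 and 10 in the tests of the strains' responses in the same order, and 50 in the F test. The weight estimation stopped before it converged, with weights from 0.057 to 56.3, so these counts are values only. Between uninjured strains, the 2 calls became 1 with the filter and 0 with equal totals, the replicate block, the index term or the compared groups alone. The compared groups alone gave 1 between saline-treated and 1 between ECM-treated strains, and log2(CPM + 1) gave 1 between ECM-treated strains. The index term gave 1 between PE-treated strains, 2 for PE against saline in MRL mice and 1 for ECM against PE in MRL mice. For ECM against PE the B6 call was lost with the filter or equal totals (0 each) and became 3 with the compared groups alone, and MRL mice gave 2 with the filter, 3 with equal totals and 2 with the replicate block. The cause was not tested. The replicate block changed no other count beyond 1.5 times. It called 0 members between PE-treated strains, the only comparison in which all correlations of same-numbered libraries exceeded 0.1.

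With each library left out, counts ran from 0 to 2 between uninjured and saline-treated strains, 0 to 3 with ECM and 0 to 17 with PE. In B6 mice they ran from 0 to 3 for the control injury, 0 to 0 for ECM against saline, 0 to 6 for PE against saline and 0 to 1 for ECM against PE. In MRL mice they ran from 0 to 0 for the control injury and for ECM against saline, 0 to 8 for PE against saline and 0 to 9 for ECM against PE. The tests of the strains' responses ran from 0 to 0, except 0 to 4 for PE against saline, and the F test from 9 to 29, with 9 and 11 for B6 mice with PE without replicates 2 and 1. It gave 13 without replicate 1 of B6 mice with ECM, replicate 1 of uninjured B6 or replicate 3 of uninjured MRL mice. Between uninjured strains the call of Adamts16 was lost without any 1 of the B6 libraries or replicate 3 of the MRL mice, and that of Adamtsl1 without replicate 2 or 3 of either strain. Between PE-treated strains, Adam10 ran from -0.48 to 0.032, above 0 without B6 replicate 2 (0.032) or MRL replicate 3 (0.0080), Mmp2 from -1.22 to 0.0048, above 0 without MRL replicate 3, and Adam17 from -0.71 to 0.032, above 0 without MRL replicate 1. The lowest of each was without MRL replicate 2. Scaling to equal totals moved the median of all genes by over 0.1 in 11 of 16 comparisons, at most by -0.34 (ECM against PE in MRL mice), and members higher in MRL mice then fell from 19 to 12 without injury and from 20 to 12 with ECM, while those higher after the control injury in MRL mice rose from 42 to 48. Depth limits Mmp8, Mmp13, Mmp27 and Adam9, which were near 0 in several libraries. It also limits Adamts3 in replicate 1 of the PE-treated MRL mice.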
